A study of Homo sapiens with 30 samples.

Results

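The 10 genes described here encode MYC, its partner MAX and the proteins around them: MXI1, MXD1, MXD3, MXD4, MNT, MGA, MLX and MYCBP2. They were taken by name from the 22368 genes of the deposited table, and each is followed through the RefSeq transcript that holds most of its reads. All 10 passed the filter on low values and were among the 11420 genes tested. The cells were 22Rv1, an established line of human castration-resistant prostate cancer. Every library came from cells given 800 µM 4-thiouridine (s4U), a uridine analogue that newly made RNA takes up and that reads as a T-to-C conversion after alkylation. The 0 h libraries were made after 30 min of labelling alone. The remaining cells stayed in s4U for a further 2, 4 or 8 h with DMSO, the vehicle, with KB742 at 1.2 µM or with KI-ARv-03 at 4 µM, both inhibitors of the transcription kinase CDK9. Libraries of 3' ends were made of 3 samples in each of the 10 groups. The KB742 dose is that of the sample titles and the extraction protocol, while the treatment field of the same samples writes 12 µM without a decimal point. The treatment protocol names DMSO alone for all samples.

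MYC and MAX are basic helix-loop-helix leucine zipper proteins that bind DNA as a pair, with a preference for the sequence CACGTG, the E-box, and the pair raises transcription of genes for ribosome building, nucleotide synthesis and growth. MXI1, MXD1, MXD3, MXD4, MNT and MGA compete for MAX and bring repressor complexes to the same sites, MLX pairs with the glucose-sensing proteins MondoA and ChREBP as well as with some MXD proteins and MNT, and MYCBP2 is a large ubiquitin ligase first found through its binding to MYC. MYC is often amplified or overexpressed in advanced prostate cancer, and its messenger RNA is known for a fast turnover that makes it sensitive to inhibitors of transcription.

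The total depth, worked out from the CPM value of 1 read, was 3376884 to 9265131 reads per library. Reads on the transcripts used, which served as library sizes, numbered 1415883 to 3970745, and 11676 to 14354 genes were detected in each. A level is given in rescaled CPM, CPM after scaling by the trimmed mean of M-values (TMM), so it is relative to the other RNA of its library, and a difference is in log2(rescaled CPM + 1), which understates the change of low genes. The conversion is the deposited fraction for a transcript, printed in percent, and a library enters its test only with at least 20 reads of the gene. Both were tested with limma over all genes with Benjamini-Hochberg adjustment, and "called" means an adjusted p under 0.05. The labels do not say whether the 3 libraries of a group came from separate cultures, so p-values measure the spread between these libraries, which may be technical, and fewer cells of a kind cannot be told apart from less RNA per cell. All 10 luminal prostate markers passed the filter, with a summed level of 1121 to 1804 CPM, while KRT14, VWF, CDH5, PTPRC and COL1A2, markers of basal, endothelial, immune and stromal cells, were at 0 in every library. Other basal, endothelial and immune markers had reads but did not pass the filter. These lists summed to at most 1.26, 0.397 and 1.59 CPM in a library. Of the neuroendocrine markers 2 of 3 passed the filter, and none was at 0 in every library. They summed to 17.7 to 32.2 CPM at 0 h, and with DMSO to 54.9 to 139 CPM at 4 h and 55.7 to 118 CPM at 8 h. With the compounds they summed to 30.9 to 244 CPM, both ends from KI-ARv-03 at 8 h. Stromal markers, 1 of 4 past the filter, summed to 0.519 to 8.21 CPM at 0 h and 12.8 to 23.9 CPM with DMSO at 8 h. Their part in the results was not tested. Whether counting used strand is not stated, so reads of all members but MYC and MNT cannot be told apart from those of genes that overlap them, such as FNTB for MAX, ASPRV1 for MXD1, PRELID1 for MXD3, PSMC3IP for MLX, MYCBP2-AS1 for MYCBP2, and small or uncharacterised genes for MXI1, MXD4 and MGA. Replicate 3 of 0 h, replicate 2 of KB742 at 2 h and replicate 1 of KI-ARv-03 at 4 h stood apart from their groups, the last with a mean conversion of 1.18% over all genes where the other 2 libraries of its group had 0.383% and 0.422%. Mean conversion was 0.289 to 0.409% at 0 h, 0.655 to 1.49% in the 9 later DMSO libraries and 0.296 to 0.522% in the other 17 compound libraries. In level, Spearman correlation within the group was 0.872 to 0.892 for replicate 3 of 0 h. For replicate 2 of KB742 at 2 h it was 0.870 to 0.873. Libraries not set apart were also low: replicate 2 of KI-ARv-03 at 8 h (0.875 to 0.914) and replicates 1 and 3 of KB742 at 4 h (0.860 with each other).

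**Figure D1:**
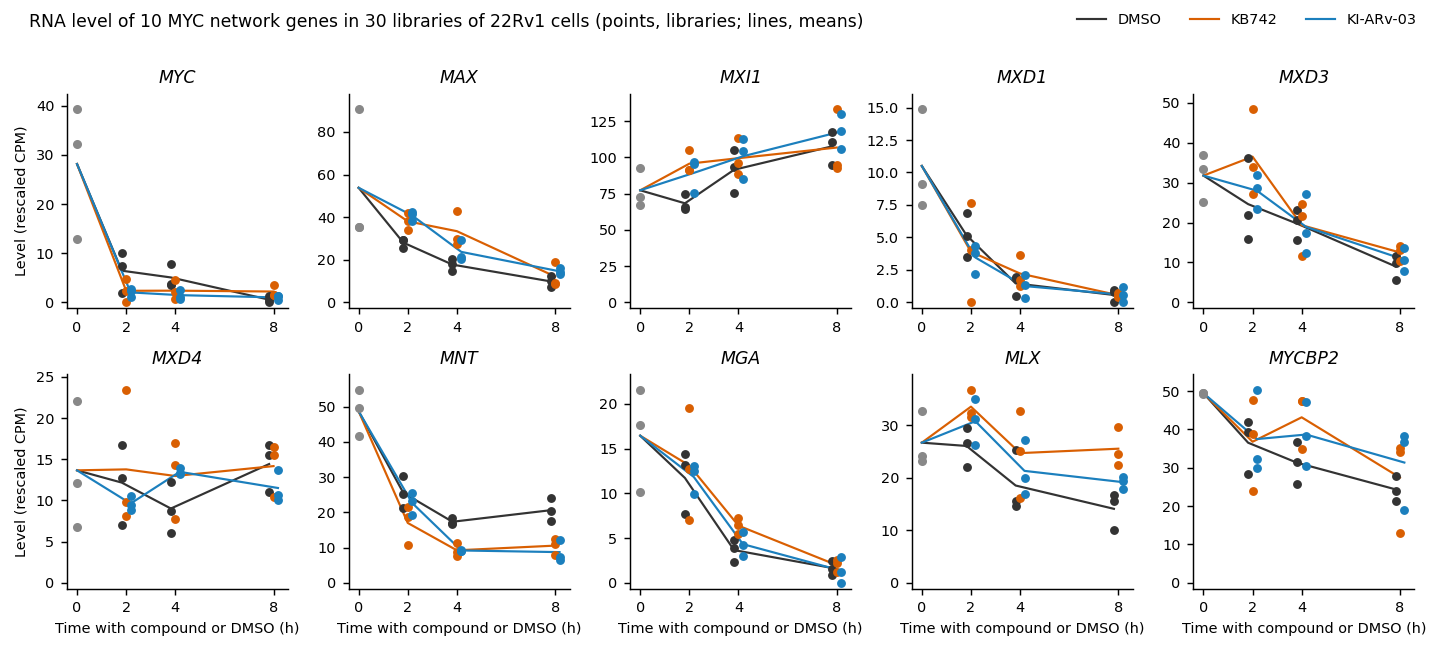
Level of each of the 10 genes in rescaled CPM (y axis, linear, from 0) against time in h (x axis) with DMSO, KB742 and KI-ARv-03, where points are single libraries and lines join the means of 3. MYC stood at 13.0 to 39.3 CPM at 0 h and at 10.1 CPM or less in all 27 later libraries, while MNT was below its DMSO libraries at 4 and 8 h with both compounds.

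MYC was far lower in the later DMSO libraries than at 0 h, and its level with either inhibitor was never called different from DMSO. Against 0 h, here and for every gene below, DMSO came together with more time in culture and in s4U. These cannot be told apart. At 0 h the 3 libraries held 32.2, 39.3 and 13.0 CPM (28.2 ± 13.6, SD, n = 3, from 106, 193 and 50 reads). With DMSO they held 1.82, 10.1 and 7.44 CPM at 2 h, 7.83, 3.58 and 3.79 CPM at 4 h, and 1.24, 0.387 and 0 CPM at 8 h. No later DMSO library reached the lowest 0 h library, so the groups did not overlap at any of the 3 times. The difference from 0 h was -2.05 at 2 h (SE 0.59, limma adjusted p = 0.0598, not called), -2.20 at 4 h (adjusted p = 0.00928) and -4.19 at 8 h (adjusted p = 3.61e-06). In reads, DMSO at 8 h held 3 against 349 at 0 h, a depth-scaled ratio of 0.0196 with an exact 95% interval of 0.00402 to 0.0578 that covers counting error only. The 2 h difference was called without replicate 3 of 0 h (-2.54, limma adjusted p = 0.0343), without replicate 2 of DMSO at 2 h (-2.47, adjusted p = 0.0423) and under library-size scaling (-2.20, adjusted p = 0.0356). The 4 h call was lost with a pseudocount of 0.25 (-2.36, adjusted p = 0.0637).

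With the inhibitors MYC was low at every time. KB742 libraries held 4.73, 0 and 2.30 CPM at 2 h, 0.585, 2.09 and 4.45 CPM at 4 h, and 3.60, 1.50 and 1.48 CPM at 8 h. KI-ARv-03 libraries held 2.29, 1.11 and 2.65 CPM at 2 h, 0.701, 2.60 and 1.07 CPM at 4 h, and 1.21, 0.527 and 1.24 CPM at 8 h. At 2 h both compounds overlapped DMSO through its first replicate, which had 5 MYC reads. At 4 h the 3 KI-ARv-03 libraries lay below all 3 DMSO libraries, and at 8 h the 3 KB742 libraries lay above them. The differences of KB742 from DMSO were -1.27 (95% interval -2.48 to -0.05), -0.95 and 1.07 (-0.15 to 2.28) at 2, 4 and 8 h, with limma adjusted p of 1.00, 0.997 and 0.433. For KI-ARv-03 they were -1.13 (-2.34 to 0.09), -1.31 (-2.52 to -0.10) and 0.43, none called. Without the KB742 2 h library that stands apart, which had no MYC read, the 2 h difference was -0.57. The KB742 difference at 8 h exceeded that at 2 h by 2.33 (95% interval 0.62 to 4.05, unadjusted p = 0.00951), which was not called over all genes (limma adjusted p = 0.635). In that test of the change in effect 0.00876% of all genes were called for KB742, and 6.05% had an unadjusted p under 0.05. At 8 h MYC had 14 reads with KB742 and 3 with DMSO, a ratio of 4.22 with a counting interval of 1.18 to 22.9. With KI-ARv-03 it had 7 reads, a ratio of 1.81 with an interval of 0.414 to 10.9.

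The MYC reads that remained were highly converted. Weighted by reads, the conversion was 5.88% at 0 h, then 19.1, 25.8 and 9.88% with DMSO at 2, 4 and 8 h, 20.9, 21.0 and 22.8% with KB742, and 10.1, 18.3 and 26.2% with KI-ARv-03. Only 1 of the 27 later libraries had 20 reads or more, replicate 2 of DMSO at 2 h with 26 reads and a conversion of 19.2%, so no test was run at that minimum. With a minimum of 10 reads, MYC conversion was called higher than at 0 h with DMSO at 2 h (limma adjusted p = 0.0249) and 4 h (adjusted p = 0.00186). From the highest mean to the lowest, MYC levels ran 0 h, DMSO at 2 h, DMSO at 4 h, KB742 at 4, 2 and 8 h, KI-ARv-03 at 2, 4 and 8 h and DMSO at 8 h, and only 0 h and DMSO at 2 h were neighbours whose libraries did not overlap.

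MAX, the obligate partner of MYC, also fell with DMSO. It held 35.6, 35.2 and 90.6 CPM at 0 h, the last in the library that stands apart. With DMSO it held 29.1, 29.4 and 25.5 CPM at 2 h, 14.7, 20.3 and 18.2 CPM at 4 h, and 12.4, 6.96 and 10.1 CPM at 8 h. All DMSO libraries were below all 0 h libraries at each time. The change was -0.77 at 2 h (not called), -1.42 at 4 h (SE 0.33, limma adjusted p = 0.00288) and -2.23 at 8 h (adjusted p = 5.84e-06), and -0.36, -1.01 and -1.82 without the 3 libraries that stand apart. With KB742 MAX held 43.0, 29.7 and 27.5 CPM at 4 h, all above DMSO (0.86, 95% interval 0.19 to 1.53, limma adjusted p = 0.789, not called), and with KI-ARv-03 29.4, 21.2 and 20.4 CPM, also all above DMSO. By 8 h the groups overlapped for KB742, with a mean of 12.1 CPM, and lay just apart for KI-ARv-03, with 13.3, 16.3 and 14.0 CPM. MAX conversion was low, at 0.297% at 0 h, 1.40% with DMSO at 4 h and 0.0940 to 1.23% in the compound groups, and was not called in any comparison at 20 reads. With a minimum of 10 reads it was called at 8 h, higher with DMSO than at 0 h (limma adjusted p = 0.00212) and lower than DMSO with KB742 (0.00526) and KI-ARv-03 (0.000293).

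Among the MXD repressors, MXI1 (also called MXD2) had no level call at any time with all libraries in the fit. It held 66.9, 72.4 and 92.4 CPM at 0 h and 94.7, 118 and 111 CPM after 8 h of DMSO, above every 0 h library, with a difference of 0.48 (SE 0.21, limma adjusted p = 0.0600) that was not called and turned to -0.31 under library-size scaling and -0.25 on the values as deposited. It was called higher without replicate 3 of 0 h (0.58, limma adjusted p = 0.0417) and without the 3 libraries that stand apart (0.58, adjusted p = 0.0379). With both compounds it was above DMSO in all libraries at 2 h, at 90.9, 105 and 91.0 CPM with KB742 beside a DMSO mean of 68.3 ± 5.81 CPM. It overlapped DMSO at 4 and 8 h, and none of these differences was called. MXI1 conversion rose from 0.355% ± 0.206 at 0 h to 1.37% ± 0.0245 with DMSO at 4 h (SD, n = 3, limma adjusted p = 0.0314), a call lost without replicate 3 of 0 h or without any 1 of the DMSO 4 h libraries (adjusted p 0.0624 to 0.142). The conversion means with the compounds, 0.369 to 0.871%, were not called against DMSO with all libraries in the fit. At 8 h the KB742 conversion was called lower without replicate 1 of DMSO (limma adjusted p = 0.0112), without replicate 2 of KB742 (0.0388) or without the 3 libraries that stand apart (0.0359). The KI-ARv-03 conversion was called lower without replicate 1 of DMSO (limma adjusted p = 0.0330). Without that DMSO library the conversion was also called higher with DMSO at 8 h than at 0 h (0.0107).

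MXD1, induced when blood and epithelial cells differentiate, nearly vanished with DMSO. It held 9.12, 14.9 and 7.53 CPM at 0 h, 5.10, 3.48 and 6.91 CPM at 2 h, 0.489, 1.99 and 1.89 CPM at 4 h, and 0, 0.773 and 0.921 CPM at 8 h. Each DMSO library was below each 0 h library at all 3 times, and the fall was called at 4 h (-2.24, SE 0.55, limma adjusted p = 0.00489) and 8 h (-2.88, adjusted p = 0.000145). At 8 h it had 3 reads against 132 at 0 h, a ratio of 0.0518 with a counting interval of 0.0106 to 0.155. With 3 reads under KB742 and 4 under KI-ARv-03 at 8 h, no fold between the inhibitors and DMSO is given there, and no difference from DMSO was called at 2 or 4 h.

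MXD3, linked to cell division, fell later and less. It held 33.5, 25.0 and 36.8 CPM at 0 h and 9.90, 11.6 and 5.53 CPM with DMSO at 8 h, with no overlap (-1.75, SE 0.35, limma adjusted p = 0.000247), and was not called at 2 h (24.6 ± 10.4 CPM) or 4 h (19.7 ± 3.86 CPM). Its compound means were 36.5, 19.3 and 12.5 CPM for KB742 and 28.0, 18.9 and 10.7 CPM for KI-ARv-03 at 2, 4 and 8 h, and no level difference from DMSO was called. MXD3 conversion at 4 h was 2.06% ± 1.69 with DMSO, 0.376% with KB742 and 0.837% with KI-ARv-03. These differences were not called with all libraries in the fit (limma adjusted p = 0.101 and 0.372). Both were called lower without the 3 libraries that stand apart (limma adjusted p = 0.0441 and 0.0436). MXD4, a family member found in many resting tissues, held 12.2, 6.71 and 22.1 CPM at 0 h and means between 9.01 and 14.4 CPM in all later groups, so that every group overlapped its neighbours in the order of levels. At 4 h its 3 KI-ARv-03 libraries, at 13.3, 13.9 and 13.2 CPM, lay above all 3 DMSO libraries. No MXD4 level was called in any comparison, and its difference of 0.20 between DMSO at 8 h and 0 h turned to -0.55 under library-size scaling and -0.45 on the values as deposited.

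MXD4 conversion was called where its level was not. At 8 h it was 0.995 and 2.13% in the 2 DMSO libraries with 20 reads or more, 0% in all 3 KB742 libraries, and 0.226, 0 and 0% with KI-ARv-03. The 2 DMSO libraries were above all 6 compound libraries, and both differences were called (limma adjusted p = 0.0142 for KB742 and 0.0248 for KI-ARv-03). The KI-ARv-03 call was lost without its replicate 2 or 3 (limma adjusted p = 0.0748 and 0.0695).

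MNT, MLX and MXD4 are printed with their promoters because they are the members whose start regions were found to hold the E-box. Their conversion was called lower with KB742 at 8 h, as was that of MYCBP2, whose promoter in the table holds no CACGTG, out of 5 members tested and beside 34.6% of all genes. The sequences run 5′ to 3′ on the gene's strand, from 250 bases before to 50 after the start site given by RefSeq (GRCh38.p14). The capitals mark CACGTG, which reads the same on both strands. MNT lies at chr17:2401011-2401310 on the minus strand, with the motif's first base at -193 from the start site and a GC content of 76.0%. MLX lies at chr17:42566850-42567149 on the plus strand, with the motif at -50 and 71.0% GC. MXD4 lies at chr4:2262060-2262359 on the minus strand, with the motif at -238 and 72.3% GC.
MNT: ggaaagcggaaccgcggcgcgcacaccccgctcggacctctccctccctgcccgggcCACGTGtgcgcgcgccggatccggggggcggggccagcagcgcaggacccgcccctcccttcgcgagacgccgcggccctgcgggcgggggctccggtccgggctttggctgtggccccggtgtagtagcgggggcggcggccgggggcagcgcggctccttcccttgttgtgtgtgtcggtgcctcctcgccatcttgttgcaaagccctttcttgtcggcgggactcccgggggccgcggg
MLX: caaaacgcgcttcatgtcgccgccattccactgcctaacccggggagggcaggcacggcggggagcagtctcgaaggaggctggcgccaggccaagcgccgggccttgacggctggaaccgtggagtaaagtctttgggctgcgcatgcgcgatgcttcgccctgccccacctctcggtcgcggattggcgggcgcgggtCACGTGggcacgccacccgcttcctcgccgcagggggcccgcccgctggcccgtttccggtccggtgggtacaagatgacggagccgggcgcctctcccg
MXD4: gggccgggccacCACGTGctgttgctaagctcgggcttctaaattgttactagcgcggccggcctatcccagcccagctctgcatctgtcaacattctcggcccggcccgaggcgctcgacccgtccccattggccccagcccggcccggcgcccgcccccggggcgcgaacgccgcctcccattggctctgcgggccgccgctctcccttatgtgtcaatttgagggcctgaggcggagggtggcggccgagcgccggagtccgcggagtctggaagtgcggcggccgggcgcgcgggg
Of the 10 genes, 9 had promoters in the RefSeq table, 14 in all, and 3 of these 14 held CACGTG, against 2548 of 35116 promoters of the same length (7.256%). The gene without one in the table was MYC, which was not searched. A match describes these letters only.

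MNT, the most widely expressed MAX-binding repressor, was the 1 member whose level was called between an inhibitor and the vehicle. Its level was 41.7, 49.6 and 54.8 CPM at 0 h, and with DMSO 21.1, 25.2 and 30.3 CPM at 2 h, 16.6, 18.3 and 17.0 CPM at 4 h, and 24.1, 17.4 and 20.3 CPM at 8 h. None of these 9 libraries reached the 0 h range, and the fall was called at 4 h (-1.43, SE 0.28, limma adjusted p = 0.000765) and 8 h (-1.20, adjusted p = 0.00109) but not at 2 h (-0.91, adjusted p = 0.0899). The 2 h difference was called under library-size scaling (-1.04, limma adjusted p = 0.0408), on the values as deposited (-1.04, 0.0304) and by DESeq2 (0.0101). With KB742 MNT held 21.5, 18.7 and 10.7 CPM at 2 h, 8.77, 7.54 and 11.3 CPM at 4 h, and 8.01, 12.5 and 11.1 CPM at 8 h. With KI-ARv-03 it held 25.6, 19.2 and 23.1 CPM at 2 h, 9.11, 9.11 and 9.29 CPM at 4 h, and 12.1, 7.38 and 6.59 CPM at 8 h. At 4 and 8 h all 12 compound libraries lay below all 6 DMSO libraries.

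The MNT difference from DMSO was called with KI-ARv-03 at 8 h (-1.19, 95% interval -1.77 to -0.60, limma adjusted p = 0.0199). It was not called with KB742 at 8 h (-0.91, -1.49 to -0.33, limma adjusted p = 0.0995) or at 4 h with either compound (-0.86 for KB742 with adjusted p = 0.583, -0.85 for KI-ARv-03 with adjusted p = 0.735). The KI-ARv-03 call was lost without replicate 1 (-1.03, limma adjusted p = 0.0780) or 3 (-1.11, 0.0994) of DMSO at 8 h or without replicate 3 of KI-ARv-03 at 8 h (-1.03, 0.141), with library-size scaling (-0.97, 0.0588), on the values as deposited (-0.76, 0.155) and with only the groups compared in the fit (-1.15, 0.202). Its size at 8 h differed from that at 2 h by -1.03 (unadjusted p = 0.0165, limma adjusted p = 0.68, not called), in a test that called 0.00876% of all genes for KI-ARv-03 and gave 6.65% an unadjusted p under 0.05.

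MNT conversion also separated vehicle from inhibitor. It was 0.852, 0.623 and 1.35% at 0 h, and with DMSO 14.9, 13.2 and 14.2% at 2 h, 20, 19.7 and 21.5% at 4 h, and 17.0, 14.9 and 26.4% at 8 h. Every DMSO library was above every 0 h library, with limma adjusted p of 9.50e-05, 1.69e-07 and 1.28e-07. With KB742 it was 4.81, 2.60 and 7.31% at 2 h, 3.16 and 2.90% at 4 h and 5.68 and 12.9% at 8 h, in the libraries with 20 reads or more. With KI-ARv-03 it was 2.82, 4.85 and 4.32% at 2 h, 6.82, 2.27 and 14.4% at 4 h, and 3.73% in the 1 library with enough reads at 8 h. All of these lay below the DMSO libraries of the same time and above all 3 libraries of 0 h. The KB742 conversion was called lower than DMSO at 4 h (limma adjusted p = 0.000226) and 8 h (0.0173) but not at 2 h (0.0584). The KI-ARv-03 conversion was called lower at 2 h (limma adjusted p = 0.0383) and 4 h (0.00522). The 14.4% library is the KI-ARv-03 one with the high mean conversion, and the 4 h call held without it (limma adjusted p = 0.0103). Leaving out libraries ended 3 of these 4 calls: the 2 h KI-ARv-03 call without any 1 of its 6 libraries (adjusted p 0.0789 to 0.142), the 4 h KI-ARv-03 call without its replicate 2 (0.0737), and the 8 h KB742 call without replicate 3 of DMSO at 8 h (0.110). On a log2 scale all 4 were lost, at adjusted p of 0.361 and 0.347 for KI-ARv-03 at 2 and 4 h and 0.0564 and 0.347 for KB742 at 4 and 8 h in limma. With only the groups compared in the fit the KI-ARv-03 call at 2 h (limma adjusted p = 0.0553) and the KB742 call at 8 h (0.110) were lost. The former was also lost with a minimum of 10 reads (limma adjusted p = 0.107). That minimum allowed a test of KI-ARv-03 at 8 h, whose MNT conversion was then called lower than DMSO (limma adjusted p = 7.14e-05).

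**Figure D2:**
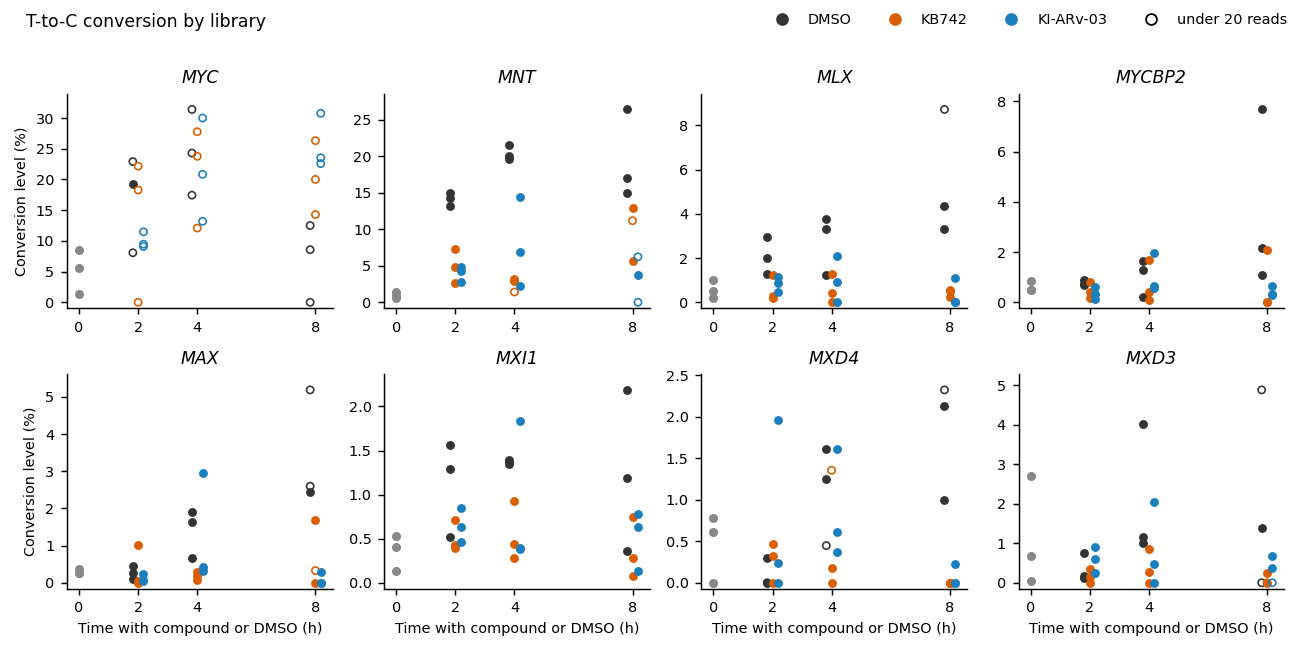
Conversion in percent (y axis, linear) against time in h (x axis) for 8 of the 10 genes with DMSO, KB742 and KI-ARv-03, where points are libraries and open points are libraries with under 20 reads of the gene, left out of tests and means. MNT with DMSO lay between 13.2 and 26.4% from 2 h on, above the compound libraries of the same time.

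MGA, a large repressor that joins MAX to a polycomb complex, fell with DMSO from 17.6, 21.6 and 10.1 CPM at 0 h to 3.91, 4.77 and 2.27 CPM at 4 h and 2.48, 1.55 and 0.921 CPM at 8 h. The groups did not overlap at 4 or 8 h, and both falls were called (-1.89, SE 0.43, limma adjusted p = 0.00276, and -2.70, adjusted p = 1.78e-05). The compound means were 13.1, 6.38 and 1.98 CPM for KB742 and 11.8, 4.32 and 1.35 CPM for KI-ARv-03 at 2, 4 and 8 h, and none was called against DMSO, though at 4 h the 3 KB742 libraries, at 6.43, 5.44 and 7.28 CPM, lay above all 3 of DMSO.

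MLX, the MAX-like partner of MondoA and ChREBP, held 23.1, 24.2 and 32.7 CPM at 0 h and 15.5, 16.6 and 10.1 CPM with DMSO at 8 h. The groups did not overlap and the fall was called at 8 h (-0.89, SE 0.28, limma adjusted p = 0.0111), except without replicate 3 of DMSO at 8 h (-0.71, adjusted p = 0.0569). With KB742 at 8 h MLX held 22.4, 24.6 and 29.6 CPM and with KI-ARv-03 20.2, 17.9 and 19.4 CPM, all 6 above DMSO. The KB742 difference of 0.83 (95% interval 0.26 to 1.41) was not called with TMM scaling (limma adjusted p = 0.136) and was called under library-size scaling (1.07, adjusted p = 0.0276). The KI-ARv-03 difference was not called under either.

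MLX conversion, in contrast, was higher with DMSO than with the compounds. It was 0.564% ± 0.412 at 0 h, 1.24, 3.76 and 3.31% with DMSO at 4 h (limma adjusted p = 0.0424) and 3.30 and 4.34% in the 2 DMSO libraries with enough reads at 8 h (adjusted p = 0.0105). At 8 h it was 0.440% ± 0.158 with KB742 and 0.366% ± 0.634 with KI-ARv-03 (SD, n = 3), and both differences from DMSO were called (limma adjusted p = 0.00967 and 0.00195). At 4 h it was 0.565% with KB742 (limma adjusted p = 0.0402, called) and 1.00% with KI-ARv-03, which was not called (0.175) except without its replicate 1 (0.0305) or without all 3 libraries that stand apart (0.0306). Both 4 h calls, against 0 h and for KB742, were lost without some single libraries (limma adjusted p 0.0786 to 0.157 without replicate 1 or 3 of 0 h or 2 or 3 of DMSO at 4 h, and 0.0855 to 0.173 without replicate 2 or 3 of DMSO or KB742 at 4 h). The first was also lost without the libraries that stand apart (limma adjusted p = 0.116). Both 4 h calls were lost with a minimum of 10 reads (limma adjusted p = 0.0606 and 0.0609) and on a log2 scale (0.104 and 0.106). The KB742 call at 4 h was also lost with only the groups compared in the fit (limma adjusted p = 0.0890). On a log2 scale the 8 h calls against 0 h (limma adjusted p = 0.0578) and for KB742 (0.0591) were lost.

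MYCBP2, the ubiquitin ligase, held 49.6, 49.4 and 49.3 CPM at 0 h and 27.9, 21.3 and 23.9 CPM with DMSO at 8 h, a fall that was called (-1.0, SE 0.34, limma adjusted p = 0.0161) except without replicate 2 of DMSO at 8 h (-0.92, adjusted p = 0.0513). The compounds were not called against it, with means of 27.4 ± 12.5 CPM for KB742 and 31.3 ± 10.7 CPM for KI-ARv-03 at 8 h. Its conversion with DMSO at 8 h was 1.10, 2.17 and 7.67%, with KB742 0, 0 and 2.09%, and with KI-ARv-03 0.641, 0.291 and 0.341%. DMSO against 0 h, KB742 against DMSO and KI-ARv-03 against DMSO were all called at 8 h (limma adjusted p = 0.0241, 0.00536 and 0.0155). All 3 calls were lost without the DMSO replicate at 7.67% (limma adjusted p = 0.282, 0.0926 and 0.175), and the first also without replicate 2 (0.0598) or 3 (0.0677) of 0 h. With only the groups compared in the fit all 3 were lost too (limma adjusted p = 0.121, 0.142 and 0.0949). On a log2 scale the call against 0 h (limma adjusted p = 0.0953) and the KI-ARv-03 call (0.0521) were lost.

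Counted over the network, the vehicle time course gave more level calls than the inhibitors did. With DMSO against 0 h, no member was called at 2 h, when limma called 2.64% of all 11420 genes lower and 0.0876% higher, and 3 members had an unadjusted p under 0.05, as did 13.4% of all genes. At 4 h 5 members were called lower, MYC, MAX, MXD1, MNT and MGA, where 14.6% of all genes were lower and 5.74% higher. Unadjusted p was under 0.05 for 5 members at 4 h and 9 at 8 h, and for 33.8% and 55.4% of all genes. At 8 h 8 members were called lower, all but MXI1 and MXD4, where 29% of all genes were lower and 20% higher. Members below every 0 h library numbered 5, 7 and 8 at 2, 4 and 8 h, against 15.2%, 23.9% and 32.4% of all genes. Those above every 0 h library numbered 0, 0 and 1, the last being MXI1, against 7.15%, 18.7% and 25.3% of all genes. The median member difference was -0.44, -1.04 and -1.48, beside -0.01, 0.01 and -0.14 over all genes tested. Library-size scaling shifted the median of all genes at 8 h by -0.75 and the deposited scaling by -0.66, under which 8.23% and 8.14% of the calls were higher in place of 40.8%. The 8 falling members stayed called under both. These scalings also called MYC and MNT lower at 2 h and MXD3, MLX and MYCBP2 lower at 4 h.

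**Figure D3:**
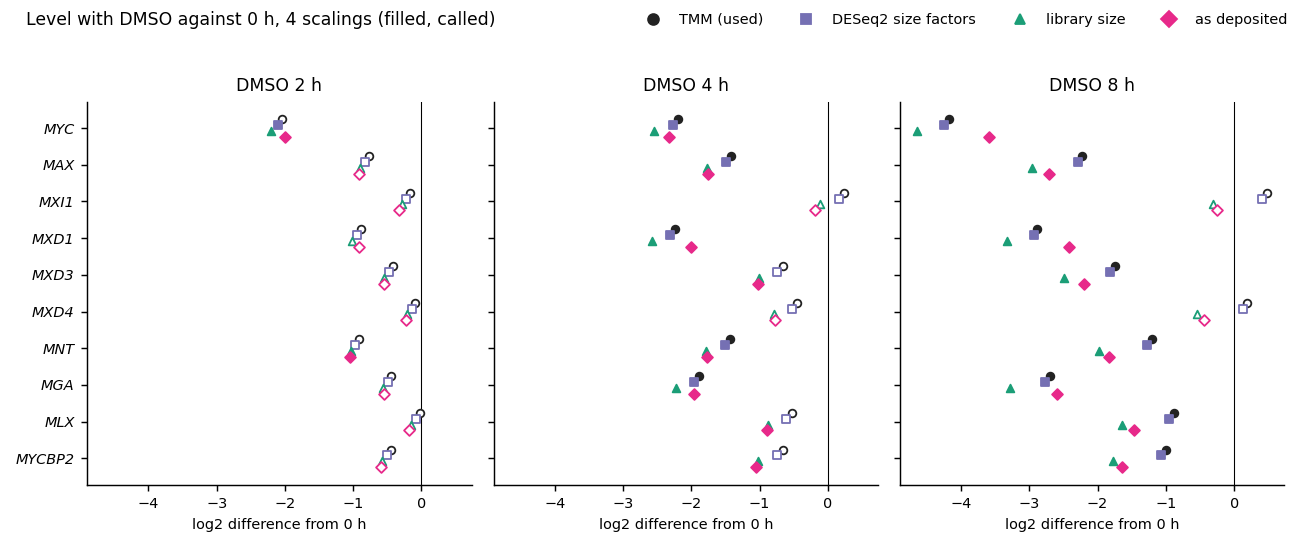
Difference in level between DMSO at 2, 4 or 8 h and 0 h (x axis, log2) for each gene (y axis) under TMM, DESeq2 size factors, library size and the values as deposited, where a filled mark is a call. At 8 h MYC, MAX, MXD1, MXD3, MNT, MGA, MLX and MYCBP2 were called lower under all 4 scalings, while MXI1 and MXD4 changed sign between them.

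Over the 60 comparisons of a member's level with DMSO (10 genes, 2 compounds and 3 times, with shared DMSO libraries), 1 was called, MNT with KI-ARv-03 at 8 h. The background was 0.0263% of genes lower and 0% higher at 2 h for each compound. At 4 h it was 0.0788% lower and 0.035% higher with KB742 and 0.0525% lower and 0.0175% higher with KI-ARv-03. At 8 h it was 0.604% lower and 1.23% higher with KB742 and 0.989% lower and 1.93% higher with KI-ARv-03. Unadjusted p was under 0.05 for 3, 2 and 2 members with KB742 beside 3.15%, 4.88% and 13.9% of all genes. With KI-ARv-03 these were 0, 2 and 1 members beside 3.01%, 3.97% and 17% of all genes. Libraries lay apart from DMSO for 3 members higher and 0 lower (3.72% and 3.71% of all genes) with KB742 at 2 h, 2 higher and 1 lower (5.85% and 5.59%) at 4 h, and 2 higher and 1 lower (9.05% and 7.51%) at 8 h. For KI-ARv-03 they were 2 higher and 0 lower (5.88% and 6.05%), 2 higher and 2 lower (5.9% and 6.67%), and 2 higher and 1 lower (12.2% and 9.1%). MNT was the lower one at 4 and 8 h with both compounds, joined by MYC with KI-ARv-03 at 4 h, and MAX was among the higher ones in 5 of the 6. The median member difference from DMSO was 0.09, 0.39 and 0.12 with KB742 and 0.03, 0.17 and 0.19 with KI-ARv-03, and the medians of all genes lay between -0.03 and 0.04. Several differences that were not called changed sign with the scaling, among them MXD3 at 4 h and MXD4 at 8 h with both compounds.

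**Figure D4:**
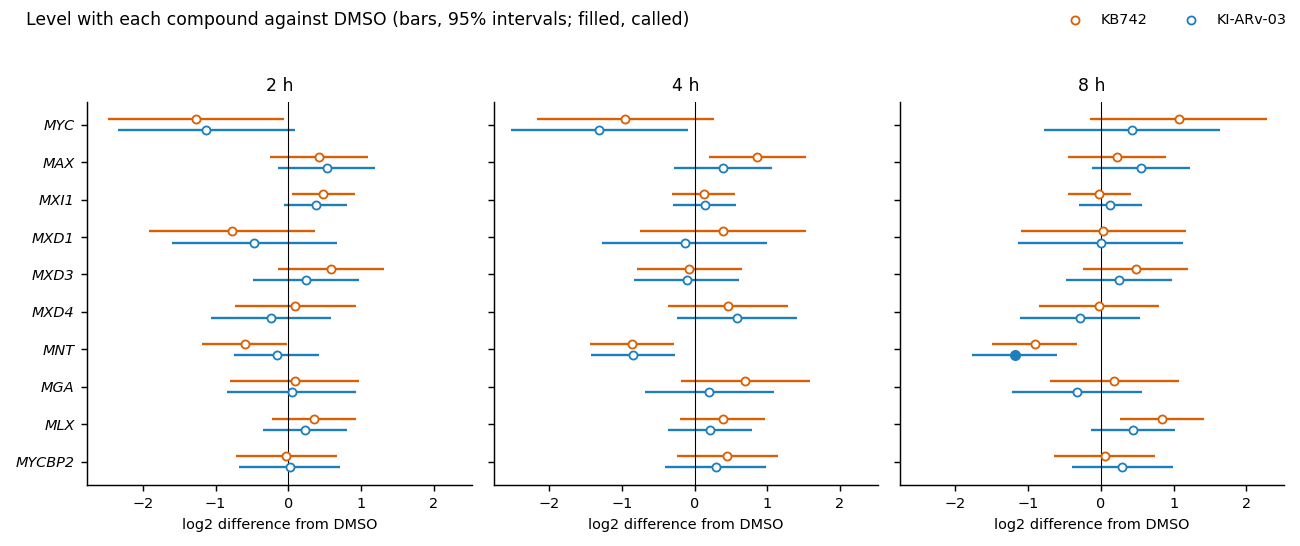
Difference in level from DMSO (x axis, log2, bars are 95% intervals) for each gene (y axis) with each compound at 2, 4 and 8 h (KB742 orange, KI-ARv-03 blue), where the 1 filled point is called. MNT with KI-ARv-03 at 8 h (-1.19) was called, while MYC ran from -1.27 with KB742 at 2 h to 1.07 at 8 h with wide intervals.

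The inhibitors were also compared with each other, at doses that differ, 1.2 µM against 4 µM. No member level was called at any time by limma, edgeR or DESeq2, no member had an unadjusted p under 0.05, where 2.03%, 1.37% and 2.1% of all genes had, and 0% of all genes were called. Libraries of the compounds lay apart for 0 members at 2 h (2.53% of all genes higher and 2.97% lower with KB742) and 4 h (3.55% and 3.07%), and for MYC and MLX at 8 h, both higher with KB742 (1.94% and 2% of all genes). The difference, KB742 minus KI-ARv-03, was -0.14 (95% interval -1.35 to 1.07), 0.36 (-0.86 to 1.57) and 0.64 (-0.57 to 1.85) for MYC at 2, 4 and 8 h, and -0.44 (-1.02 to 0.14), -0.01 (-0.59 to 0.57) and 0.27 (-0.31 to 0.86) for MNT. These intervals leave room for differences of more than 1 log2 unit for MYC. Conversion was not called either, in 8, 7 and 6 members tested and in 0% of all genes, with no member at an unadjusted p under 0.05 beside 2.59%, 9.42% and 2.62% of all genes.

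Conversion calls among the members were 1 of 8 tested, 3 of 7 and 3 of 5 higher with DMSO than at 0 h at 2, 4 and 8 h, where 8.47%, 34.6% and 42.7% of all genes tested were higher. They were MNT at each time, MLX and MXI1 at 4 h, and MLX and MYCBP2 at 8 h. Against DMSO, conversion with KB742 was called lower for 0 of 8, 2 of 7 and 4 of 5 members, with 0.853%, 17.4% and 34.6% of all genes lower, and at 2 h 2 members had an unadjusted p under 0.05 beside 14.4% of all genes. With KI-ARv-03 it was called lower for 1 of 8, 1 of 7 and 3 of 4, with 0.821%, 7.31% and 36.8% of all genes lower. The median member difference was 0.0547, 1.01 and 3.03 percentage points with DMSO against 0 h, -0.240, -1.34 and -2.95 with KB742 against DMSO, and -0.285, -0.562 and -2.36 with KI-ARv-03. Over all genes these medians were 0.284, 0.580 and 0.625, then -0.197, -0.463 and -0.546, and then -0.205, -0.107 and -0.591. Members were lost from these tests as their reads fell, so the counts at 8 h hold the better covered genes.

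The 3′ UTR of each member, the region in which AU-rich elements shorten the life of many messenger RNAs, was searched for ATTTA on the transcript's strand in the GENCODE v29 annotation. MYC had 4 copies in 476 bases, or 8.40 per kb, where the median of 19381 genes was 1.46 per kb and 67.1% had a copy. MYCBP2 had 3 copies in 720 bases, MXD1 10 in 4654, MXI1 4 in 2378, MGA 4 in 2661, MAX 3 in 1624 and MLX 2 in 1636. MXD3, MXD4 and MNT had none in 383, 3112 and 2841 bases. The longer element TTATTTATT was found in no member, MYC included, beside 8.10% of all genes. For all genes the longest 3′ UTR was taken, and for members that of the transcript used.

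Genes around the network were followed in lists, to be read beside the shares of all genes: with DMSO 2.64%, 14.6% and 29% were called lower in level and 0.0876%, 5.74% and 20% higher at 2, 4 and 8 h. Of 40 genes that MYC is known to activate, 38 were tested. With DMSO against 0 h 0 were called in either direction at 2 h, 3 higher and 7 lower at 4 h, and 8 higher and 10 lower at 8 h, counts near those shares, where the list's median was -0.26 beside -0.14 over all genes. With KB742 1 was called higher at 8 h and with KI-ARv-03 2, with medians of 0.25 and 0.07, and none was called lower, beside 1.23% and 1.93% of all genes higher. WDR43, a factor of ribosomal RNA processing, held 2.48, 5.80 and 0 CPM with DMSO at 8 h, 9.21, 7.52 and 8.14 CPM with KB742 (1.69, limma adjusted p = 0.0474) and 10.9, 6.85 and 17.7 CPM with KI-ARv-03 (2.07, adjusted p = 0.0110). All 6 compound libraries were above DMSO, and at 0 h the mean had been 74.0 ± 16.5 CPM. The KB742 call was absent with edgeR (adjusted p = 0.251) and DESeq2 (0.185), with the replicate block (0.0651), on the values as deposited (0.0807), without the filter (0.0673) and with only the groups compared (0.459). It was also lost without any 1 of the 6 libraries but replicate 2 of DMSO, and without replicate 3 of DMSO the difference was 0.98 (limma adjusted p = 0.344). The KI-ARv-03 call was lost without replicate 3 of DMSO (limma adjusted p = 0.0943) or of KI-ARv-03 (0.0977) at 8 h and with only the groups compared (0.219). NOP16, a nucleolar protein, held 26.6, 23.6 and 18.4 CPM with DMSO at 8 h and 43.2, 58.0 and 63.9 CPM with KI-ARv-03 (1.23, limma adjusted p = 0.0303), a call lost without replicate 3 of either group (0.122 and 0.162) and with only the groups compared (0.169). Conversion in this list was called higher with DMSO at 8 h for 22 of 31 genes tested, and lower than DMSO for 15 with KB742 and 14 with KI-ARv-03, beside 42.7%, 34.6% and 36.8% of all genes.

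Of 10 genes that MYC is known to repress, 7 were tested, and the level of 0, 3 and 3 was called lower with DMSO at 2, 4 and 8 h (2.64%, 14.6% and 29% of all genes). GADD45A, a stress-response gene that MYC represses, was the 1 gene of this list whose level was called against DMSO, lower with both compounds at 8 h. It held 24.1, 29.4 and 37.8 CPM with DMSO at 8 h, 5.21, 4.01 and 11.8 CPM with KB742 (-2.07, limma adjusted p = 0.0228) and 5.25, 1.58 and 6.18 CPM with KI-ARv-03 (-2.67, adjusted p = 0.00236), with no overlap. The KB742 call was lost without replicate 2 or 3 of DMSO or replicate 1 or 2 of KB742, and with a pseudocount of 0.25 (limma adjusted p = 0.0553). Both calls were lost with only the groups compared in the fit. Conversion in this list was called lower than DMSO for 1 of 4 genes tested at 4 h and 2 of 4 at 8 h with each compound. Over all genes it was lower for 17.4% with KB742 and 7.31% with KI-ARv-03 at 4 h, and for 34.6% and 36.8% at 8 h.

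Among 14 regulators of MYC protein stability, all tested, the level of 1, 5 and 6 was called lower with DMSO at 2, 4 and 8 h (2.64%, 14.6% and 29% of all genes). USP28, a deubiquitinase that stabilises MYC, was the only one whose level was called with a compound. It held 6.19, 14.3 and 9.21 CPM with DMSO and 23.4, 17.4 and 25.96 CPM with KI-ARv-03 at 8 h (1.14, limma adjusted p = 0.0435). EdgeR did not make this call (0.0763), and it was lost without replicate 1 or 3 of either group. It was also lost with only the groups compared in the fit (limma adjusted p = 0.216) and without the filter (0.0505). Conversion was called lower than DMSO for 5 of 11 of these regulators with KB742 at 4 h, 5 of 7 with KB742 at 8 h and 5 of 8 with KI-ARv-03 at 8 h (17.4%, 34.6% and 36.8% of all genes). Of 16 cofactors of MYC and MXD proteins, the level of 1 was lower at 2 h, 1 higher and 2 lower at 4 h, and 4 higher and 6 lower at 8 h with DMSO, beside 20% higher and 29% lower at 8 h over all genes. Of 10 subunits of the MGA-containing polycomb complex, 1, 1 and 5 were lower in level (2.64%, 14.6% and 29% of all genes). Of the other MYC and Mondo paralogs, 2 of 4 were tested and no level was called. In these last 3 lists no level was called with a compound. Their conversion was called lower with KB742 at 4 h for 1 of 13 cofactors, 3 of 8 complex subunits and 1 of 1 paralog, and at 8 h with each compound for 1 of 9, 1 of 4 and 1 of 1. The conversion shares of all genes given above for KB742 at 4 h and each compound at 8 h apply here too.

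The genes whose 10 group means ran most like those of MYC were C15orf39 (Pearson r = 0.968), ZNF280C (0.967), KIAA0232 (0.952), SIAH1 (0.949) and PHF23 (0.946), all far lower with DMSO than at 0 h. For the other members they were SUFU for MAX (0.983), GNG7 for MXI1 (0.947), GEMIN6 for MXD1 (0.987), UBALD2 for MXD3 (0.984), CNPY3-GNMT for MXD4 (0.920), ZNF480 for MNT (0.976), ZNF672 for MGA (0.991), MINK1 for MLX (0.971) and RAB5A for MYCBP2 (0.973). These are descriptions over 10 groups that share libraries and scaling.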

How the data were processed

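Read values of 30 libraries were deposited by the authors as 1 table of 85618 RefSeq transcript entries, on hg19 per the submitters' processing notes. No aligner, counter or conversion caller is given in the sources used here. The authors deposited a CPM signal per entry and library, whose columns sum to 0.840 to 1.38 times the nominal total of CPM, and 100% of its values came out as whole reads (within 0.05) once divided by the value of 1 read. The deposited conversion is a fraction of unstated numerator and denominator. Groups came from sample titles: 8 of 9 samples titled 4 h carry another time in their treatment field. Symbols matched 50531 of 50925 IDs (99.2%), and 0.478% of reads had none.

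Recovered reads were TMM-scaled with edgeR 4.0.16 (factors 0.684 to 1.31), filtered at a minimum count of 10 and tested in limma 3.58.1 (R 4.3.3) on log2(CPM + 1) with all 30 libraries in 10 groups. The median 95% half-width of a difference was 0.865. Conversion was tested in limma on the arcsine square-root scale with 2 or more libraries of at least 20 reads per group. The members and lists were chosen with earlier results of these data known. The text names all 10 members, up to 3 genes per list called in the most compound comparisons, and the 5 genes most like MYC or 1 like each other member. Alternatives were DESeq2 1.42.0, edgeR's quasi-likelihood test, other scalings, filters, pseudocounts and read minimums, leaving out libraries, and a replicate block. Both fits were tested on simulated data for DMSO at 8 h against 0 h, with 200 changed genes each. The level fit tested 10955 genes there and the conversion fit 6476, with the same spread between libraries set for every gene. The level fit called 15% of changes of 1 log2 unit and 85% of those of 2. The conversion fit called 28% of shifts of 0.1 and 99% of those of 0.2 on the arcsine scale. In these simulations smaller changes were often missed. In the data that comparison called far more genes (29% lower and 20% higher in level), so the shares there may differ. Figures used Python 3.11.15 and matplotlib 3.10.9. Same-numbered libraries did not deviate together, so they were not treated as pairs.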

Additional observations from a re-analysis of the deposited data

How the results depend on the processing

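The 13 calls of lower member levels with DMSO against 0 h became 12 to 18 under all alternatives run and 12 to 15 with single libraries left out. The 1 level call of a compound against DMSO, MNT with KI-ARv-03 at 8 h, became 0 on the values as deposited and 0 with only the groups compared in the fit, and lay between 0 and 1 with single libraries left out. KB742 against KI-ARv-03, and the effect at 8 h against 2 h, gave 0 level calls throughout. The 11 conversion calls of compounds against DMSO became 1 with at least 50 reads, 4 on a log2 scale, 6 with only the groups compared, 12 with at least 10 reads and 7 to 12 with single libraries left out, the lowest without replicate 2 of DMSO at 8 h. The 7 conversion calls of DMSO against 0 h became 2 with at least 50 reads, 4 on a log2 scale, 4 without the 3 libraries that stand apart (a choice made after seeing the data), 9 with at least 10 reads and 4 to 7 with single libraries left out, the lowest without replicate 3 of 0 h. At 50 reads fewer members had a value. Without replicate 2 of DMSO at 8 h, MXD4 and MLX kept 1 library of that group with at least 20 reads. Their conversion was then not tested against that group. For the other changes the cause was not tested. For called members and every alternative that gave a value, the direction never turned: 229 level values stayed called and 9 did not, 138 conversion values did and 49 did not, and for list genes 136 did and 34 did not.

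With the replicate number as a block, the counts were 13 and 1 for level and 7 and 12 for conversion (DMSO against 0 h, then compounds against DMSO), the added call being MNT conversion with KB742 at 2 h (limma adjusted p = 0.0399). Deviations of same-numbered libraries correlated at -0.363 to 0.613, over 0.1 in 12 of 36 pairs, and 12 correlated best with their own number. Depth limits the genes with few reads most: MYC had 0 to 9 reads in each 8 h library, where its folds carry wide counting intervals and its conversion was not tested.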

Other observations

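A MAX transcript outside those described had 16 reads at 0 h beside 639 of the transcript used, a ratio of 2.50%, and 18 reads with DMSO at 8 h beside 49, a ratio of 36.7%. With KB742 at 8 h it had 23 reads (a ratio of 32.4%) and with KI-ARv-03 15 (15.3%). Another MXD3 transcript had 14 reads at 0 h, a ratio of 3.73% to the transcript used, and 17 with DMSO at 8 h (32.7%), with a read-weighted conversion of 27.3%, beside 4 reads with KB742 and 0 with KI-ARv-03 at 8 h. No test was run on these transcripts.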
